A study of Arabidopsis thaliana with 9 samples.

Results

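Expansins and xyloglucan endotransglucosylase/hydrolases (XTH enzymes) loosen and rebuild the growing plant cell wall, and the transcripts of 46 such genes were followed in Arabidopsis thaliana seedlings with altered levels of MYB30. The 46 genes were taken by identifier and comprise 19 alpha-expansins (EXPA), 2 beta-expansins (EXPB) and 25 XTH genes, out of 33977 gene rows in each deposited table. This list was chosen with earlier results of these data known. The transcription factor MYB30 is known from pathogen-induced cell death, very-long-chain fatty acid synthesis and seedling growth in light. The series holds 9 libraries from whole seedlings of the Col ecotype, grown for 4 days on MS plates under continuous white light: 3 of the wild type (Col), 3 of a myb30 mutant and 3 of a MYB30 overexpressor (MYB30-OE). The mutant allele, the promoter that drives the overexpression and the number of lines behind a genotype are not stated in the sources used here, and the libraries of a genotype are not said to come from separate cultures, so the p-values reflect no more than the spread among these libraries. MYB30 itself, in CPM (reads of a gene scaled to a common library size), was at 32.0 in the wild type, 4.55 in the mutant and 622 in the overexpressor, and it gave the sign of the fold changes.

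The authors deposited 1 table for each pair of genotypes, giving each gene a p-value, a log2 fold change and its mean abundance in log2 CPM. These tables hold no values of single libraries. Each level below is therefore 1 value per genotype, implied by the mean abundance and the fold change and averaged over the 2 tables in which that genotype stands, without a spread. The error behind each comparison is the deposited p-value, adjusted here by Benjamini-Hochberg over all genes with at least 1 read, and a gene is said to have risen or fallen where the adjusted p was under 0.05. The implied depth of a library was about 33905536 reads for the wild type, 36516306 for the mutant and 32367678 for the overexpressor, so that 1 CPM stands for about 102, 109.5 and 97.1 reads over the 3 libraries of each. All 46 genes had reads in all 3 comparisons, and none had to be left out by a filter.

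Expansins are wall proteins that let cellulose and the glucans around it slip past one another without cutting them. XTH enzymes act on xyloglucan, the main hemicellulose of the growing wall in this species: most cut a xyloglucan chain and join the new end to another chain, while a few, among them XTH31 and XTH32, are known or predicted to hydrolyse it. Both families are large, and their members differ in the organ in which they act. EXPA7 and EXPA18, for example, belong to root hairs, EXPA2 to germinating seeds, and XTH22, also called TCH4, to the response to touch and brassinosteroid.

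Transcripts of these wall genes were mostly higher in the mutant and mostly lower in the overexpressor among those that passed. In myb30 against Col, 14 of 46 rose (30.4%) and 6 fell (13.0%), where 10.8% of all 25713 tested genes were higher and 10.7% lower. In MYB30-OE against Col, 7 rose (15.2%) and 16 fell (34.8%), where 5.99% of 25593 tested genes were higher and 5.49% lower. Both comparisons use the same Col libraries and are not independent. Because the 46 genes were chosen with earlier results of these data known, the shares describe the list and are no test of it. In the direct comparison of the altered lines, 20 members were higher in myb30 (43.5%) and 7 were lower (15.2%), beside 16.2% and 15.4% of 25647 tested genes. In whole seedlings a difference in the number of cells of a type cannot be told apart from one in RNA per cell.

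These genes are better expressed than most, and a share over all tested genes includes many of low level. Among genes that averaged at least 10 CPM, 29.3% passed in myb30 against Col, 16% in MYB30-OE against Col and 42.8% between the altered lines. The members at that level passed in 18 of 39, 21 of 37 and 24 of 39 cases. The median deposited log2 fold change of the 46 members stood at 0.16 for myb30, at 0.02 for MYB30-OE and at 0.37 between the lines, beside 0.01, 0.00 and 0.03 over all tested genes. Changes of at least 2-fold were seen in 10 rises and 1 fall in myb30, against 2.79% and 2.38% of tested genes, and in 3 rises and 3 falls in MYB30-OE, against 1.72% and 0.891%. Between the altered lines, 9 members were at least 2-fold higher in myb30 and 3 lower, against 3.68% and 4.73%. Among the 21 expansins 7 rose (33.3%) and 1 fell (4.76%) in myb30, and 2 rose (9.52%) and 9 fell (42.9%) in MYB30-OE. The 25 XTH genes had 7 rises (28%) and 5 falls (20%) in myb30 and 5 rises (20%) and 7 falls (28%) in MYB30-OE. Over all tested genes 10.8% rose and 10.7% fell in myb30, and 5.99% rose and 5.49% fell in MYB30-OE.

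**Figure D1:**
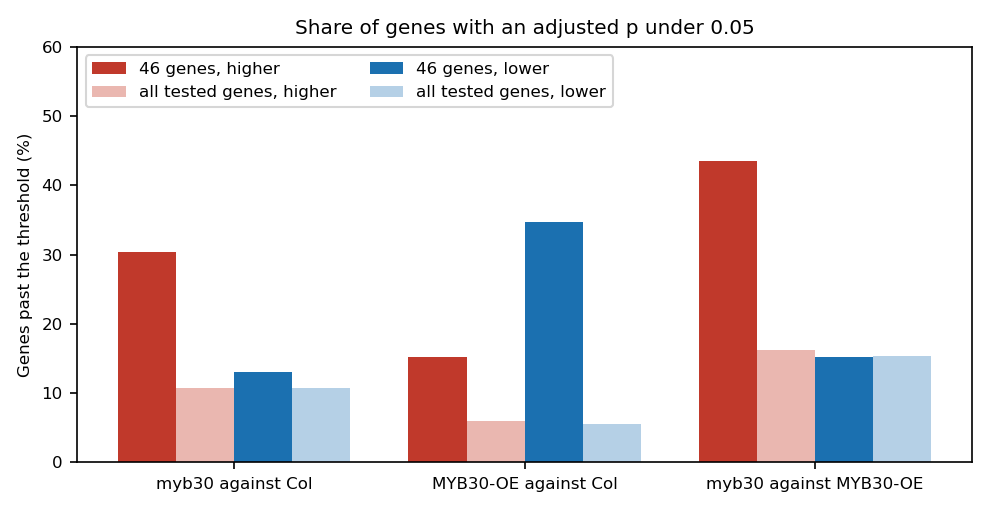
Share of genes (percent, vertical axis from 0) with an adjusted p under 0.05 in each of the 3 comparisons, for the 46 expansin and XTH genes and for all tested genes, by direction relative to the second-named genotype. The tallest bars are the 43.5% of members higher in myb30 than in MYB30-OE and the 34.8% lower in MYB30-OE than in Col.

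Levels spanned more than 3 orders of magnitude when set per kb of exon. XTH4 stood highest, at 663 CPM per kb in Col, followed by XTH7 at 299.6, EXPA1 at 126, XTH31 at 114 and EXPA3 at 107 CPM per kb. The lowest were EXPA20 at 0.174 and XTH25 at 0.0963 CPM per kb. XTH4 alone held 36.9% of the summed CPM of the 25 XTH genes followed here in Col, 26.1% in myb30 and 34.8% in the overexpressor. In myb30 XTH31 moved to 237 CPM per kb, behind only XTH4 and XTH7, while in MYB30-OE it was at 58.0, the eleventh level. With no spread per genotype, neighbours in this order cannot be told apart beyond error.

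**Figure D2:**
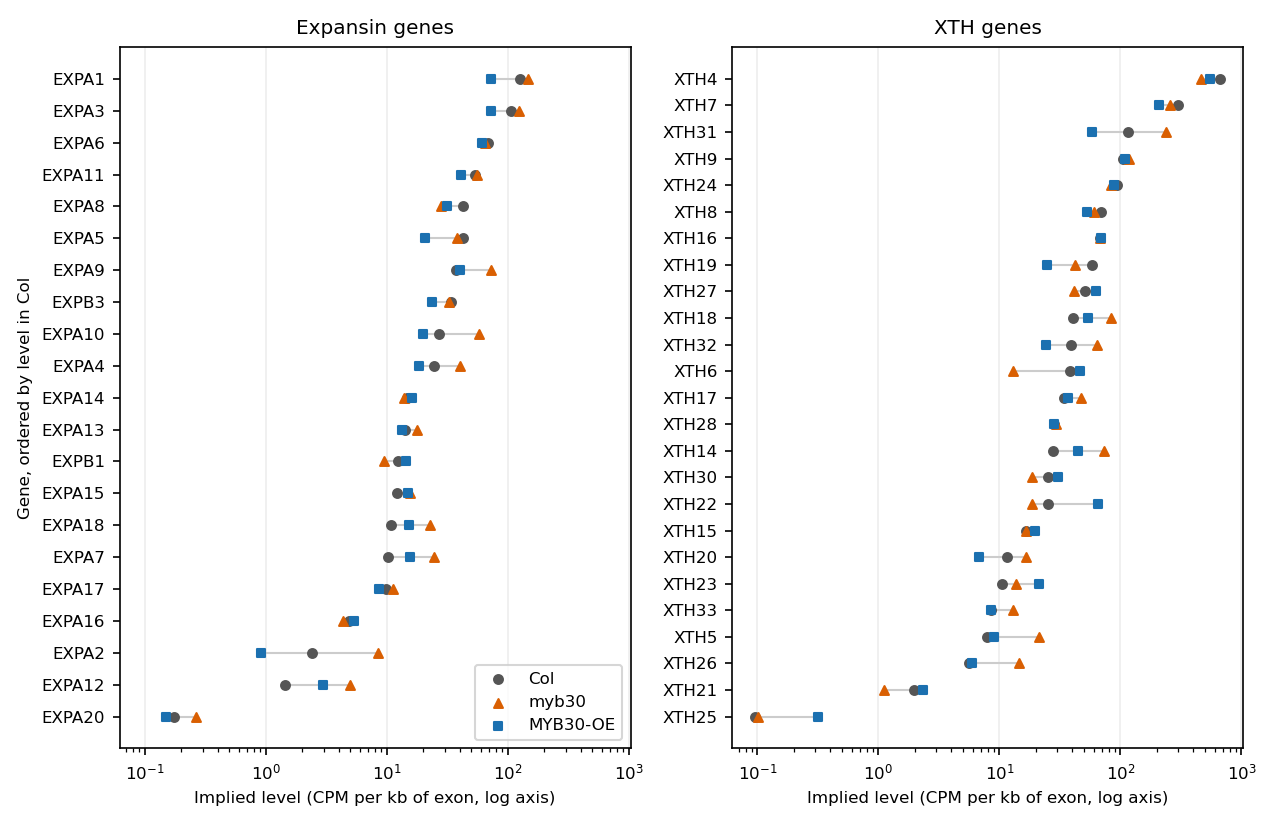
Implied level of each gene (CPM per kb of exon, log axis) in Col, myb30 and MYB30-OE, with expansins on the left and XTH genes on the right, ordered by the level in Col. Each point is 1 value per genotype without a spread, and the grey lines join the lowest and highest; XTH31, EXPA2 and XTH6 have some of the widest gaps.

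Of the 19 alpha-expansins 8 fell in the overexpressor against Col (42.1%, beside 5.49% of all tested genes). They were EXPA1, EXPA2, EXPA3, EXPA4, EXPA5, EXPA8, EXPA10 and EXPA11. EXPA1, expressed in growing leaves and in guard cells, was at 177 CPM in Col, 207 in myb30 and 102 in the overexpressor. It was 1.74-fold lower in MYB30-OE than in Col (adjusted p = 8.05e-11), while myb30 did not differ from Col beyond the threshold (deposited log2 fold change 0.22, adjusted p = 0.249). EXPA5, linked to brassinosteroid-driven growth, stood at 54.6, 48.9 and 26.6 CPM in the same order of genotypes and was 2.05-fold lower in MYB30-OE (adjusted p = 3.81e-27). Its difference between myb30 and Col again missed the threshold (adjusted p = 0.452). EXPA3 was at 129, 149.6 and 87.7 CPM, 1.46-fold lower in MYB30-OE (adjusted p = 7.33e-10). EXPA11 was at 61.0, 63.3 and 47.1 CPM, 1.29-fold lower in MYB30-OE (adjusted p = 8.12e-04). For these 4 genes Col and myb30 lay close together, and only the overexpressor passed the test against Col. Between the altered lines EXPA1, EXPA3 and EXPA5 were 2.02-fold, 1.69-fold and 1.82-fold higher in myb30 and passed, whereas EXPA11 did not (adjusted p = 0.0843).

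EXPA2, EXPA4 and EXPA10 differed from Col in both lines. EXPA10, an expansin of leaf and petiole growth, had 37.7 CPM in Col, 80.0 in myb30 and 27.9 in the overexpressor. It was 2.11-fold higher in myb30 (adjusted p = 2.04e-19) and 1.35-fold lower in MYB30-OE (adjusted p = 7.51e-06), and the direct comparison gave 2.84-fold more in myb30 (adjusted p = 2.09e-40). EXPA4 followed at 32.7, 53.4 and 24.8 CPM, 1.62-fold higher in myb30 (adjusted p = 1.62e-07) and 1.32-fold lower in MYB30-OE (adjusted p = 3.07e-04). The Col level of each gene thus lay between those of the altered lines. EXPA2, a gibberellin-responsive expansin of germinating seeds (AT5G05290), spans 1568694 to 1569864 of chromosome 5 (TAIR10, plus strand) with 3 exons. Its level was low, 2.37 CPM in Col, 8.26 in myb30 and 0.886 in the overexpressor, the last resting on about 86 implied reads. It was 3.45-fold higher in myb30 (adjusted p = 1.42e-07), 2.67-fold lower in MYB30-OE (adjusted p = 5.58e-06) and 9.22-fold higher in myb30 than in MYB30-OE (adjusted p = 7.81e-20), the largest difference of any member that passed. Seed storage transcripts moved in the same libraries. All 9 measured markers, cruciferins, albumins and oleosins, rose in both lines, beside 10.8% of all tested genes in myb30 and 5.99% in MYB30-OE. CRB was 85.9-fold higher in myb30 and 17.9-fold in MYB30-OE. The summed level of the markers was 15.3 CPM in Col, 632 in myb30 and 134 in the overexpressor. In myb30 the storage markers and EXPA2 were above Col, and in MYB30-OE the markers were above Col and EXPA2 below it. The part of residual seed tissue in the EXPA2 values was not tested.

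EXPA8 was the one expansin that passed the test as lower than Col in both lines. It was at 47.0 CPM in Col, 31.0 in myb30 and 34.5 in the overexpressor, 1.53-fold lower in myb30 (adjusted p = 0.00299) and 1.36-fold lower in MYB30-OE (adjusted p = 7.20e-05). The altered lines did not differ from each other beyond the threshold (adjusted p = 0.514). EXPA9 rose in the mutant alone, from 46.3 to 90.9 CPM (1.95-fold, adjusted p = 1.66e-15), with 50.2 CPM in MYB30-OE (adjusted p = 0.407), and the lines differed 1.79-fold (adjusted p = 1.08e-13).

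Root-hair expansins were higher in the mutant. EXPA7, which root hairs need to elongate, was at 10.6 CPM in Col, 25.2 in myb30 and 16.0 in the overexpressor. The rise was 2.36-fold in myb30 (adjusted p = 2.25e-06) and 1.52-fold in MYB30-OE (adjusted p = 0.0211), and the lines differed 1.56-fold (adjusted p = 0.0104). EXPA18, its close relative in root hairs, was at 10.8, 22.7 and 15.2 CPM. It rose 2.07-fold in myb30 (adjusted p = 4.19e-04), whereas MYB30-OE missed the threshold (deposited log2 fold change 0.49, adjusted p = 0.0793), and so did the difference between the lines (adjusted p = 0.0866). Both genes were highest in myb30 and lowest in Col. EXPA12, a low alpha-expansin, showed the same order at 1.33, 4.62 and 2.75 CPM, 3.42-fold higher in myb30 (adjusted p = 3.12e-09) and 2.07-fold in MYB30-OE (adjusted p = 0.00929), with 1.65-fold between the lines (adjusted p = 0.0196).

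Other root-hair genes moved with them. Of 7 root-hair markers (RHD6, RSL4, COBL9, LRX1, PRP3, RHS12 and RHS19) all 7 rose in myb30, against 10.8% of tested genes, and 4 rose in MYB30-OE, against 5.99%, with none falling and none at 0. Their summed level was 114 CPM in Col, 266 in myb30 and 179 in the overexpressor. In myb30 the root-hair-specific genes RHS12, PRP3, RHS19 and LRX1 were 2.76-fold, 2.60-fold, 2.47-fold and 2.06-fold higher. Of 8 general root markers, 2 rose in myb30 (WOX5 1.63-fold and PYK10 1.31-fold), which is 25% beside 10.8% of tested genes. In MYB30-OE 1 fell (PYK10, 1.45-fold), which is 12.5% beside 5.49%, and the other 6 did not pass in any comparison. The part of root-hair number in the EXPA7, EXPA18, XTH14 and XTH26 values was not tested.

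The remaining alpha-expansins passed in at most 1 comparison. EXPA13 was at 16.5, 20.7 and 15.7 CPM and passed between the lines alone (1.3-fold higher in myb30, adjusted p = 0.00986). EXPA6 was among the well-expressed ones at 94.9, 88.8 and 85.4 CPM and passed nowhere (adjusted p = 0.565, 0.247 and 0.836 in the 3 comparisons). EXPA14 and EXPA17, which take part in lateral root emergence, also passed nowhere, at 17.6, 16.8 and 19.5 CPM for the former and 7.56, 8.56 and 6.62 CPM for the latter. The same held for EXPA15 (16.5, 21.0 and 20.4 CPM), EXPA16 (5.40, 4.82 and 5.86 CPM) and EXPA20. EXPA20 rested on about 20 implied reads in Col, 33 in myb30 and 16 in the overexpressor, and the myb30-to-Col ratio of 1.53 lay between 0.853 and 2.82 by an exact binomial interval (95%, reads only).

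The beta-expansins, a separate branch of the family, were divided. EXPB3 fell in the overexpressor, at 44.7 CPM in Col, 43.5 in myb30 and 31.0 in the overexpressor (1.44-fold, adjusted p = 3.70e-04). EXPB1 did not pass against Col in either line (14.0, 10.9 and 16.4 CPM, adjusted p = 0.0703 and 0.187). Between the lines EXPB3 was 1.39-fold higher in myb30 (adjusted p = 0.00106) and EXPB1 1.52-fold lower (adjusted p = 5.72e-04).

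**Figure D3:**
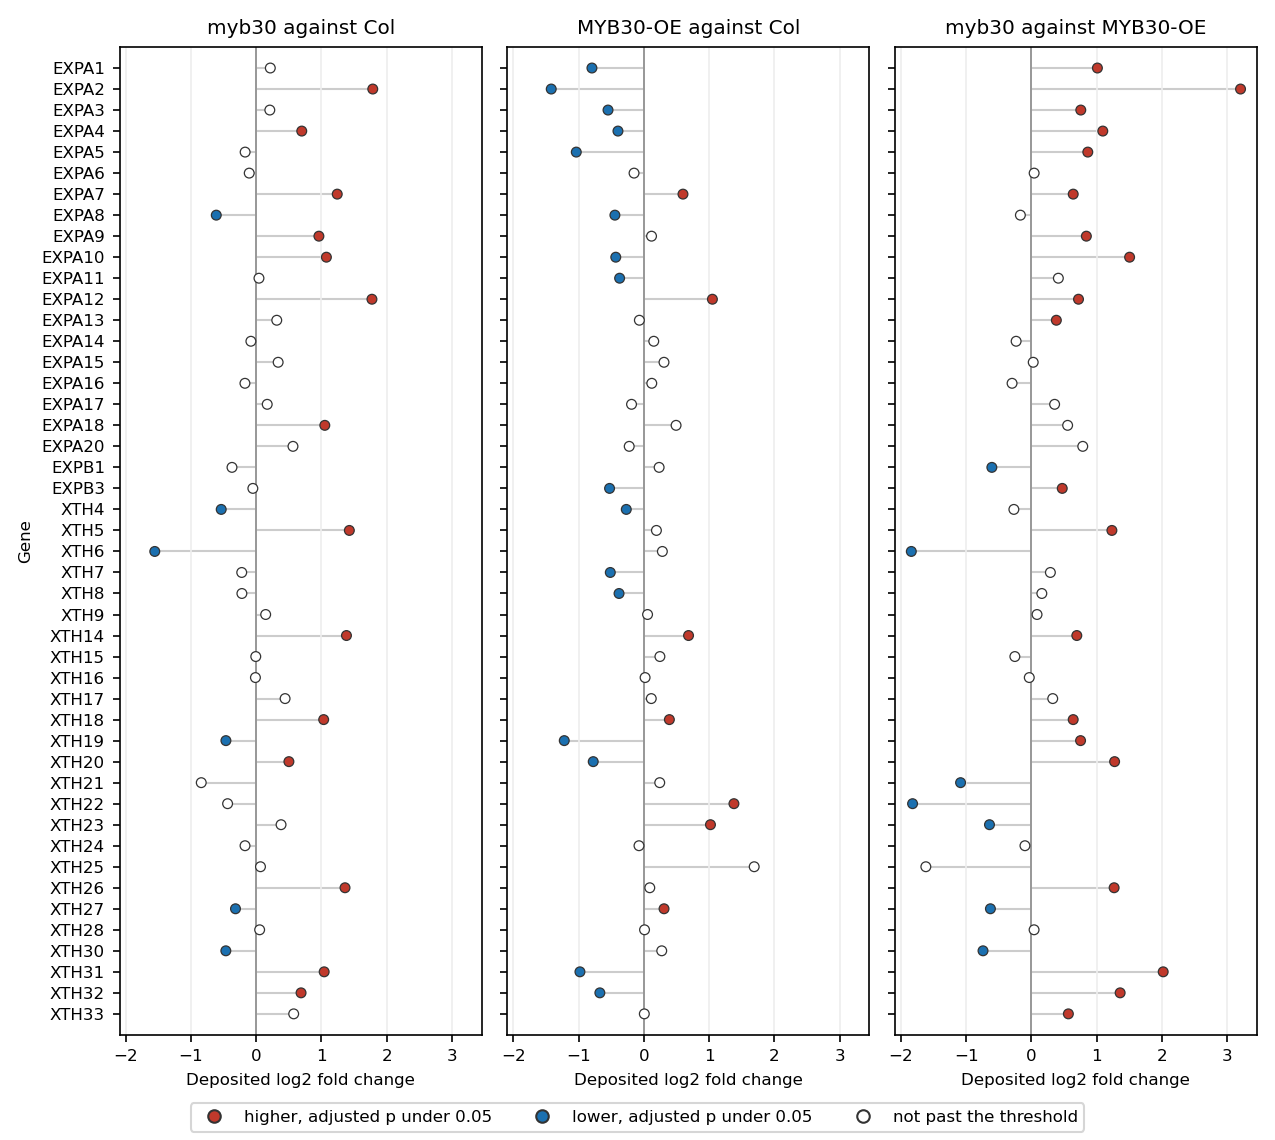
Deposited log2 fold change (horizontal axis) of each of the 46 genes in the 3 comparisons. Filled points passed an adjusted p of 0.05 (red higher, blue lower in the first-named genotype) and open points did not; EXPA2, XTH31 and EXPA10 lie to the right of 0 in myb30 and to the left in MYB30-OE, and XTH6 and XTH22 lie far to the left in the direct comparison.

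XTH enzymes share a short catalytic motif of the glycoside hydrolase family to which they belong, and the 27 coding bases that encode it were read from the TAIR10.1 sequence for 23 of the 25 members, XTH9 and XTH33 having no match to the pattern searched. They are shown for the XTH genes on which the results turn, with capitals for bases that differ from XTH22:
XTH22: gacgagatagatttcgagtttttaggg
XTH4: gacgagatagaCttTgagttCCtTggA
XTH6: gacgagCtagatttTgagttCttGggA
XTH23: gacgagatTgaCttTgagttCttGggA
XTH31: gaTgagGtCgatAtcgagtttCtaggg
XTH32: gaTgagGtagaCAtAgaAtttttGggg
XTH4, XTH6 and XTH23 differ from XTH22 at 6, 5 and 6 of the 27 bases, and XTH31 and XTH32 at 5 and 7.

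The group I genes include the most abundant transcript of the family. XTH4, an endotransglucosylase gene of expanding and vascular tissues, was at 804 CPM in Col, 559 in myb30 and 666 in the overexpressor. It fell in both lines, 1.45-fold in myb30 (adjusted p = 0.00664) and 1.20-fold in MYB30-OE (adjusted p = 0.00247), and the lines did not differ beyond the threshold (adjusted p = 0.193). XTH7, the next most abundant, was at 340.4, 294 and 238 CPM and fell in MYB30-OE (1.43-fold, adjusted p = 2.83e-07). The same held for XTH8, at 78.4, 67.9 and 60.2 CPM (1.3-fold, adjusted p = 1.16e-05). All of these 3 genes were highest in Col.

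XTH5 and XTH6 moved in opposite directions in the mutant. XTH6 was at 42.5 CPM in Col, 14.6 in myb30 and 51.7 in the overexpressor. It was 2.94-fold below Col in myb30 (adjusted p = 1.22e-17), the largest fold among the falls of the 46 genes past the threshold against Col. It was 3.58-fold below MYB30-OE (adjusted p = 1.06e-30), while MYB30-OE did not pass against Col (adjusted p = 0.0921). XTH5 was at 11.0, 29.8 and 12.5 CPM, 2.69-fold higher in myb30 (adjusted p = 6.73e-26) and again not past the threshold in MYB30-OE (adjusted p = 0.394). For both genes the mutant stood apart and Col and MYB30-OE lay close together. XTH9, known from the shoot apex, passed nowhere, at 116, 129 and 120.3 CPM.

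Within group II, XTH22 and XTH23 were highest in the overexpressor. XTH22 (TCH4, AT5G57560), induced by touch and brassinosteroid, spans 23307130 to 23308282 of chromosome 5 (minus strand) with 2 exons. It was at 26.9 CPM in Col, 20.0 in myb30 and 69.9 in the overexpressor, 2.60-fold higher in MYB30-OE (adjusted p = 2.21e-09). Its difference between myb30 and Col missed the threshold (deposited log2 fold change -0.44, adjusted p = 0.0622), and myb30 was 3.53-fold below MYB30-OE (adjusted p = 1.90e-14). XTH23, a close relative with 80.9% identity in coding sequence, was at 11.3, 14.9 and 22.9 CPM, 2.03-fold higher in MYB30-OE (adjusted p = 1.54e-05). XTH23 in myb30 did not pass against Col (adjusted p = 0.177) and was 1.56-fold below MYB30-OE (adjusted p = 0.00225). XTH15, also called XTR7 and known from the response to shade, and its relative XTH16 passed in no comparison, at 17.7, 17.7 and 20.9 CPM for XTH15 and 73.4, 73.4 and 74.3 CPM for XTH16.

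Root-hair XTH genes were higher in the mutant, as were the root-hair expansins. XTH14, an endotransglucosylase gene of root hairs and the root elongation zone, was at 30.3 CPM in Col, 79.5 in myb30 and 48.6 in the overexpressor. It rose 2.61-fold in myb30 (adjusted p = 4.87e-08) and 1.61-fold in MYB30-OE (adjusted p = 0.00433), with 1.62-fold between the lines (adjusted p = 0.00660). XTH26, also known from root hairs, was at 6.11, 15.8 and 6.50 CPM, 2.57-fold higher in myb30 (adjusted p = 2.27e-05) and not past the threshold in MYB30-OE (adjusted p = 0.937). XTH14 was thus raised in both lines, and XTH26 in myb30 alone past the threshold, with a difference of 2.41-fold between the lines (adjusted p = 2.95e-05). XTH21, known from root growth, was low (1.89, 1.06 and 2.23 CPM) and passed between the lines alone, 2.12-fold lower in myb30 (adjusted p = 3.46e-04).

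The 4 closely related genes XTH17, XTH18, XTH19 and XTH20, known mainly from roots, did not move together. XTH18 was at 42.8 CPM in Col, 88.3 in myb30 and 56.1 in the overexpressor, a rise of 2.05-fold (adjusted p = 1.27e-05) and of 1.31-fold (adjusted p = 0.0203). XTH19, an auxin-responsive member, was at 65.5, 47.9 and 28.1 CPM, a fall of 1.38-fold in myb30 (adjusted p = 0.0203) and of 2.33-fold in MYB30-OE (adjusted p = 1.07e-37). In both lines the one gene was therefore above Col and the other below. XTH20 was at 13.1, 18.7 and 7.64 CPM, 1.41-fold higher in myb30 (adjusted p = 0.0182) and 1.71-fold lower in MYB30-OE (adjusted p = 4.87e-05). XTH17 was at 36.0, 49.3 and 38.9 CPM and passed in no comparison. Between the lines XTH18, XTH19 and XTH20 were 1.56-fold, 1.69-fold and 2.42-fold higher in myb30 and passed (adjusted p = 0.00307, 3.60e-05 and 2.45e-14).

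XTH18 and XTH19 are neighbours on the minus strand of chromosome 4, from 14825808 to 14827047 and from 14828712 to 14830016 (TAIR10), 1664 bases apart, with XTH24 a further 5215 bases below XTH18. Their coding sequences are 89.2% identical, and those of XTH17 and XTH18, on different chromosomes, are 92.2% identical. The longest run shared by XTH18 and XTH19 is 68 bases. Reads within such runs may not be assigned to 1 gene, depending on read length and on how multiply mapping reads were counted, neither of which the sources used here state. The 90 coding bases around the catalytic motif, lined up on that motif, are shown to let the neighbours be compared, with capitals where XTH19 or XTH24 differs from XTH18:
XTH18: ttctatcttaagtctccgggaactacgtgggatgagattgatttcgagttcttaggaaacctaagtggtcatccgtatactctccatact
XTH19: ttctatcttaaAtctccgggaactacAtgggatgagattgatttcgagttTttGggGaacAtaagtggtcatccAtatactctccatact
XTH24: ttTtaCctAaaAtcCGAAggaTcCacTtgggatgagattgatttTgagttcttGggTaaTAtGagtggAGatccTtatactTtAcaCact
XTH19 differs from XTH18 at 7 of these bases and XTH24 at 23. XTH24, known from meristems, was at 113, 101 and 107 CPM and passed in no comparison.

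Other XTH genes that lie side by side or close together are set against each other here. XTH23 and XTH14 lie 412 bases apart on chromosome 4, and their deposited log2 fold changes were 0.38 and 1.38 in myb30 and 1.02 and 0.69 in MYB30-OE. On chromosome 5 a row of 4 XTH genes runs from XTH12 through XTH13 and XTH25 to XTH22, with 1 other annotated gene between XTH12 and XTH13. XTH12 and XTH13, which are not among the 46 genes, were 3.21-fold and 2.97-fold higher in myb30 (adjusted p = 1.45e-11 and 6.13e-12), where XTH22 at the other end did not pass. In MYB30-OE XTH22 was 2.60-fold higher, XTH13 1.49-fold higher (adjusted p = 0.0303), and XTH12 missed the threshold (adjusted p = 0.0590). XTH25, between them, was nearly silent, with about 10, 12 and 33 implied reads in Col, myb30 and MYB30-OE. Its ratio of 3.46 in MYB30-OE lay between 1.66 and 7.86 by the same kind of interval, but the deposited p-value did not pass (adjusted p = 0.433).

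**Figure D4:**
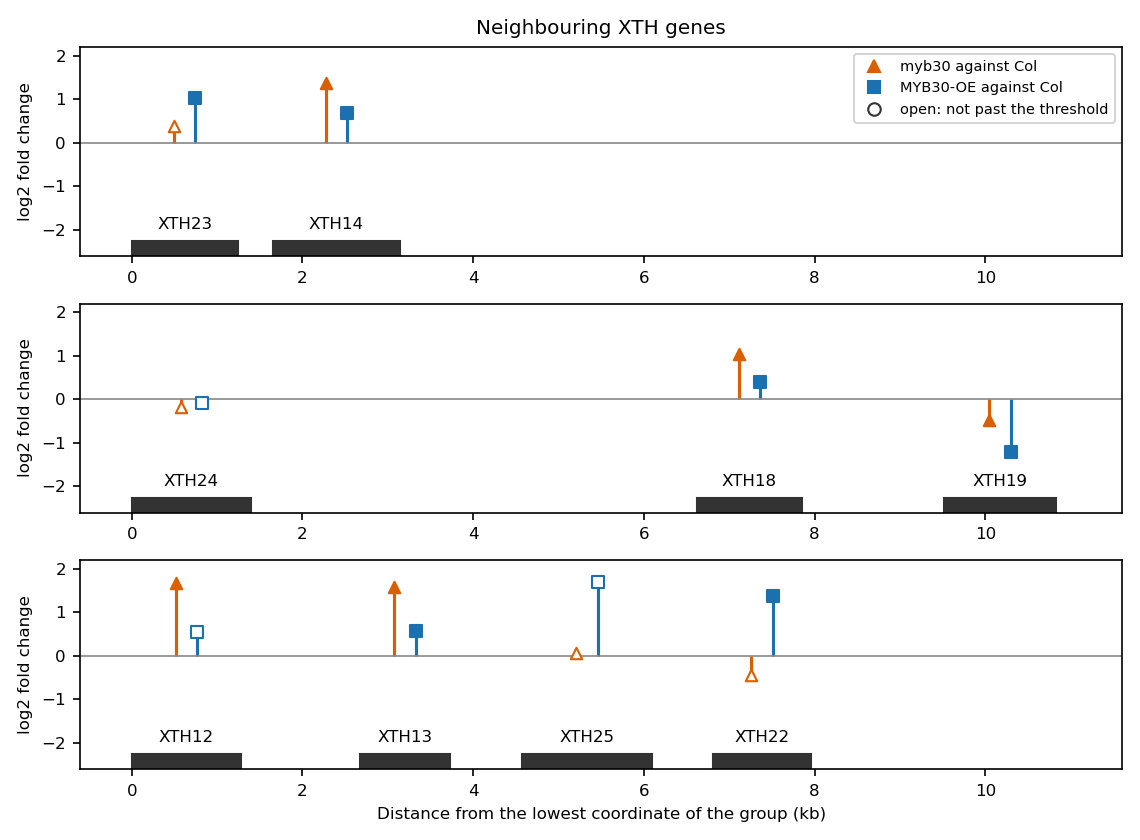
Log2 fold changes (vertical axis) of neighbouring XTH genes in 3 stretches of the genome, placed by distance in kb from the lowest coordinate of each group; black bars are the genes. Triangles give myb30 against Col and squares MYB30-OE against Col, filled where the adjusted p was under 0.05; XTH18 and XTH19 lie on opposite sides of 0.

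Group III held the member with the lowest adjusted p between the altered lines, XTH31. This xyloglucan-hydrolysing enzyme gene (AT3G44990), known from roots and aluminium sensitivity, spans 16446975 to 16448764 of chromosome 3 (minus strand) with 4 exons. It was at 146 CPM in Col, 302 in myb30 and 73.8 in the overexpressor. It was 2.06-fold higher in myb30 than in Col (adjusted p = 2.51e-12), 1.97-fold lower in MYB30-OE (adjusted p = 9.17e-20) and 4.05-fold higher in myb30 than in MYB30-OE (adjusted p = 6.16e-51). XTH32, the other member of the same hydrolase-type branch (AT2G36870), spans 15472645 to 15474681 of chromosome 2 (minus strand) with 5 exons and was at 50.9, 82.5 and 31.8 CPM. It rose 1.61-fold in myb30 (adjusted p = 8.93e-05), fell 1.60-fold in MYB30-OE (adjusted p = 1.67e-08) and differed 2.57-fold between the lines (adjusted p = 7.61e-20). Both genes had their highest level in the mutant and their lowest in the overexpressor, the order opposite to that of MYB30 itself.

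The other group III genes ran the other way or differed less. XTH27, a gene of developing leaf veins also named EXGT-A3, was at 70.5 CPM in Col, 57.0 in myb30 and 87.2 in the overexpressor, 1.25-fold lower in myb30 (adjusted p = 0.0228) and 1.24-fold higher in MYB30-OE (adjusted p = 3.27e-04). XTH30 was at 32.9, 24.0 and 39.7 CPM and fell 1.38-fold in myb30 (adjusted p = 0.0130), whereas MYB30-OE missed the threshold (adjusted p = 0.0775). Between the lines XTH27 and XTH30 were 1.55-fold and 1.67-fold lower in myb30 (adjusted p = 5.89e-08 and 2.94e-07). XTH28, known from stamen filaments, passed in no comparison (37.9, 39.6 and 38.1 CPM). XTH33, whose product is anchored in the membrane, was at 9.15, 13.7 and 9.18 CPM and passed only between the lines (1.48-fold higher in myb30, adjusted p = 0.0485).

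Upstream sequence is shown for 4 of the 6 genes that rose in myb30 and fell in MYB30-OE, the other two being EXPA2 and EXPA10, whose windows held none of the motifs searched. The 250 bases before the annotated start of XTH31, XTH32, EXPA4 and XTH20 were read from the TAIR10.1 RefSeq records on the strand of each gene, at chr3:16448845-16449094 (minus), chr2:15474829-15475078 (minus), chr2:16545747-16545996 (minus) and chr5:19481647-19481896 (plus). The deposited TAIR10 annotation places the starts of these 4 genes further downstream, at bases 16448764, 15474681, 16545584 and 19482106 in the same order. Windows and matches below hold for the RefSeq starts only. Capitals mark AACAAAC, a sequence of the type that plant MYB factors bind:
XTH31: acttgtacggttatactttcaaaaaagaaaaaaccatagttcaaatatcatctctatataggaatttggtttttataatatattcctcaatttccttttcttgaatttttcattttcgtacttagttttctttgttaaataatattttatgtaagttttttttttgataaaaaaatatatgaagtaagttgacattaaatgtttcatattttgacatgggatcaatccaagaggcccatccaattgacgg
XTH32: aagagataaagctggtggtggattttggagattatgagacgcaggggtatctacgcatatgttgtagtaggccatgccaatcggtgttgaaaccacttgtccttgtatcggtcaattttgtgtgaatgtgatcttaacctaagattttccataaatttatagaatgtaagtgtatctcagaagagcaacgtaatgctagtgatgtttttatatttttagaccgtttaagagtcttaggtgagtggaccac
EXPA4: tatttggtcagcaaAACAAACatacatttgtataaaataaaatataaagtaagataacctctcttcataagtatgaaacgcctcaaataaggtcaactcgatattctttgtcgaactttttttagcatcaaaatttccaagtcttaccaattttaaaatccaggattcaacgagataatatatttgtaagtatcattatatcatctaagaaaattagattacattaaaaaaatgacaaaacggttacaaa
XTH20: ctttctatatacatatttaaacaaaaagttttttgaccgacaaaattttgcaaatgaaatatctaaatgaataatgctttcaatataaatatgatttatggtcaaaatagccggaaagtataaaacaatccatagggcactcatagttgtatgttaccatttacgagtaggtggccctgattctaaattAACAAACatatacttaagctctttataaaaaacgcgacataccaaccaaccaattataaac
AACAAAC, searched on both strands (reverse GTTTGTT), was in the windows of 6 of 46 members (13%), EXPA3, EXPA4, EXPA18, XTH20, XTH28 and XTH33, and in 11.2% of 27443 protein-coding genes. The MYB-type sequences ACCTACC and ACCTAAC, with reverses GGTAGGT and GTTAGGT, were in 1 window (XTH7) and 0 windows, beside 1.16% and 2.46% of all, and the light-response element CACGTG in 0, beside 6.49%. Of these 4 motifs only AACAAAC is in the windows shown, so none overlaps another there. The 4 genes shown were picked from the 6 that share this order of genotypes. Among all 6, AACAAAC was in the windows of EXPA4 and XTH20 alone. A match describes letters only, and a link between motif and order was not tested.

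Genes that make and trim xyloglucan are the other side of the pathway. Of 13 synthesis genes in the authors' deposited tables, 2 passed in myb30 (1 rose and 1 fell, 15.4%, beside 21.5% of all tested genes in either direction). In MYB30-OE 3 passed (2 rose and 1 fell, 23.1%, beside 11.5%), and between the lines 0 passed, beside 31.6%. CSLC12, a glucan synthase of the xyloglucan backbone, was 1.67-fold higher in myb30 (adjusted p = 4.79e-04) and 1.35-fold higher in MYB30-OE (adjusted p = 0.0270). XLT2, which adds galactose to the side chains, was 1.33-fold and 1.40-fold lower (adjusted p = 0.00983 and 1.34e-04). XXT1, a xylosyltransferase, was 1.42-fold higher in MYB30-OE (adjusted p = 0.00129). Among 3 trimming genes, the galactosidase gene BGAL10 rose in myb30 (1.39-fold, adjusted p = 2.01e-04) and the fucosidase gene AXY8 in MYB30-OE (1.20-fold, adjusted p = 0.0139), and XYL1 did not pass. Thus 1 of 3 passed in each of these comparisons (33.3%), beside 21.5% of all tested genes in myb30 and 11.5% in MYB30-OE.

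Further members of the families outside the 46 were mostly low. Of 8 further XTH genes, 7 had reads, and 3 rose and 1 fell in myb30 (42.9% and 14.3%, beside 10.8% and 10.7% of all tested genes) while 1 rose and 1 fell in MYB30-OE (14.3% each, beside 5.99% and 5.49%). Beside XTH12 and XTH13, XTH11 was 2.19-fold higher (adjusted p = 0.00184) and XTH10 1.75-fold lower in myb30 (adjusted p = 0.0216), and XTH3 was 3.11-fold lower in MYB30-OE (adjusted p = 0.0488) at 0.221 CPM. Of 15 further expansin and expansin-like genes, EXPA19 has no row in the tables used here and 7 were listed at 0 throughout. The expansin-like gene EXLB1 fell in both lines, 1.77-fold in myb30 (adjusted p = 1.50e-05) and 1.82-fold in MYB30-OE (adjusted p = 1.44e-06), and EXLA1 rose 1.56-fold in MYB30-OE (adjusted p = 0.00186).

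Transcripts of marker genes of other tissues are given beside these results. All 6 mesophyll markers, Rubisco small subunit and light harvesting genes, fell in myb30, beside 10.7% of tested genes, and 5 of 6 rose in MYB30-OE, beside 5.99%, with summed levels of 42997 CPM in Col, 26674 in myb30 and 51187 in the overexpressor, and leaf and root transcripts were both present, as the label of whole seedlings implies. RBCS2B was 1.85-fold lower in myb30 and 1.36-fold higher in MYB30-OE. Of 5 stomatal lineage markers 3 fell in myb30, beside 10.7% of tested genes, and 4 in MYB30-OE, beside 5.49%, with summed levels of 54.5, 47.2 and 38.6 CPM, and none was at 0. Their part in the values of EXPA1 and the other expansin and XTH genes was not tested.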

How the data were processed

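RNA of 9 whole-seedling libraries, 3 per genotype, was analysed from 3 gene tables, 1 per pair of genotypes. The authors deposited in each per gene a p-value, a log2 fold change and a mean log2 CPM, with column names of edgeR's exact test. TAIR10 and the tools Cufflinks, Cuffdiff and TopHat are named in the submitters' processing notes; the counting step, its strand setting and the treatment of multiply mapping reads are not stated in the sources used here. The sign of the deposited log2 values was read from MYB30. From these tables the p-values were adjusted by Benjamini-Hochberg over genes with at least 1 read (scipy 1.17.1, pandas 2.3.3), library sizes were read from the lowest average log2 CPM, taken to hold 2 added reads, and levels were computed per genotype with a prior of 0.125 reads. Levels of 1 genotype from its 2 tables differed by at most 1.04-fold among the 43 or 44 members of at least 1 CPM in that genotype. Without strand, reads of overlapping and antisense genes cannot be told apart. Exact binomial intervals at 95% cover counting error only.

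Lengths come from the deposited TAIR10 annotation, and sequences from RefSeq TAIR10.1 (Biopython 1.88), where 99.98% of 35176 coding transcripts placed by the deposited annotation start with ATG. Steps were tested on simulated data. The simulated levels were made and recovered with the same formulas and added reads. That checks the arithmetic and cannot show that the deposited values follow these formulas. Alternatives were another threshold, adjustment, filter, centring, minimum fold and pseudocount. The members and lists were chosen with earlier results of these data known. Named genes are MYB30, all 46 members, and of each further list up to 4 called genes per comparison by size of change. The 3 tables of transposable elements were not used here.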

Additional observations from a re-analysis of the deposited data

How the results depend on the processing

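No paired analysis was possible because the tables hold no values of single libraries, and for the same reason leaving out each replicate was not run. Filtering at an average of 1 CPM, applying no filter and centring the fold changes kept every count of members within 1.5 times. At an adjusted p of 0.01 the 6 falls in myb30 against Col became 3. Under Bonferroni adjustment they became 1, the 7 rises in MYB30-OE became 2, and between the altered lines the 20 higher became 11 and the 7 lower became 4. With a 2-fold minimum, falls in myb30 numbered 1, rises and falls in MYB30-OE 3 and 3, and members higher and lower between the lines 9 and 3. The median log2 fold change in myb30 went from 0.16 to 0.14 when centred and 0.13 with a pseudocount of 1 CPM. In MYB30-OE these were 0.015, 0.014 and 0.015, and between the lines 0.37, 0.34 and 0.32. The lower counts come from the stricter rules themselves. The shifts of the medians follow from the settings. Centring subtracts the median over genes of at least 1 CPM, and a pseudocount draws ratios toward no change. Of the 70 single-member calls, 9 were lost at an adjusted p of 0.01, 30 under Bonferroni, 41 with the 2-fold minimum and 1 with no filter (XTH33 between the lines), and none reversed. Among the 46 members, EXPA7 and XTH18 in MYB30-OE, XTH19, XTH20, XTH27 and XTH30 in myb30, and EXPA7, EXPA12 and XTH33 between the lines did not pass at 0.01. Alternatives were not run for the further lists. Depth limits EXPA20 and XTH25, which rest on 10 to 33 implied reads per genotype.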
